A study of Homo sapiens with 6 samples.

Results

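Aldehyde dehydrogenases are NAD(P)-dependent enzymes, most of which oxidise aldehydes to carboxylic acids. The genes described here are ALDH1A1, ALDH1A3, ALDH1B1, ALDH2, ALDH3A1, ALDH3A2, ALDH3B1, ALDH7A1, ALDH9A1 and ALDH18A1, chosen by gene symbol from the counts table. These are 10 of the 60617 genes in the table, and all 10 passed the filter on low counts that left 18505 genes for testing. RNA was sequenced from 2 groups of the human lung cancer line A549, cultured in the same RPMI medium with fetal bovine serum and antibiotics and given no treatment in the labels: cells labelled YTHDF1 knockout (KO) and wild-type (WT) cells. There were 3 biological replicates per group by their titles, and nothing in the labels says how the gene was edited, or whether the KO libraries come from 1 clone or from separate cultures. The p-values therefore weigh the difference against the spread among these libraries, which may be technical.

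The family clears aldehydes that arise from retinol, ethanol, amino acids, sphingolipids and peroxidised membrane lipids. Retinal dehydrogenases make retinoic acid, mitochondrial members handle acetaldehyde and other small aldehydes, the ALDH3 group acts on medium-chain and long-chain aldehydes, and further members sit inside lysine breakdown, carnitine synthesis and proline synthesis. High aldehyde dehydrogenase activity is a known trait of A549 cells and of many lung cancers, and YTHDF1 is a cytoplasmic protein that reads N6-methyladenosine in mRNA.

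Library totals lay between 32037107 and 40675628 counts in the KO group and between 27238817 and 40460782 in the WT group, so 3 counts in a library equalled between 0.0735 and 0.111 CPM, the counts scaled to library size with TMM factors. YTHDF1 itself was at 48.6, 48.6 and 47.1 CPM in the KO libraries and between 96.4 and 104 CPM in the WT libraries. It fell by 1.05 on the log2 scale, with every KO library lower (SE 0.0526, edgeR adjusted p = 7.84e-18), and was still present as RNA. The 5 epithelial markers, mostly keratins, summed to between 2342 and 2459 CPM in the KO libraries and between 2046 and 2216 CPM in the WT libraries. Of these 5, CDH1, KRT19 and KRT8 were higher in KO and 2 did not pass the test. Their median change was 0.19 on the log2 scale. CDH1 averaged 34.0 CPM in KO and 10.0 CPM in WT, a larger difference than the sum shows. Of 5 leukocyte markers, CD3E and MS4A1 were at 0 in all libraries and the sum lay between 3.05 and 4.09 CPM in KO and between 11.1 and 11.4 CPM in WT, nearly all of it CD14. The 4 endothelial markers were all detected and summed to between 0.343 and 0.464 CPM in KO and between 0.528 and 1.07 CPM in WT, and the 5 fibroblast markers, mostly COL1A1, summed to between 43.7 and 46.9 CPM in KO and between 31.3 and 36.8 CPM in WT. Of the 4 fibroblast markers tested, COL1A1 and LUM were higher and COL3A1 and PDGFRB were lower, and their median change was -0.39 on the log2 scale. The share of counts on mitochondrially encoded mRNAs was 3.72% to 3.98% in KO and 5.76% to 5.92% in WT. The part of these marker levels and of the mitochondrial share in the results that follow was not tested.

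Promoter sequences are shown for 4 members. They are RefSeq's on GRCh38.p14, from 250 bases before to 50 bases after each start. RefSeq's table held 10 such promoters for 8 of the 10 genes. It held none for ALDH2 and ALDH3A1, so these genes were not searched for motifs. ALDH18A1 and ALDH7A1 are shown because they had the largest falls among the members, ALDH1A1 because it was the most abundant and ALDH1A3 because it was the scarcest and the one called higher. Capitals mark matches on either strand to CCAAT (the CCAAT box), GGGCGG (the GC box) and CACGTG (the E-box).
ALDH18A1, chr10:95656662-95656961, minus strand: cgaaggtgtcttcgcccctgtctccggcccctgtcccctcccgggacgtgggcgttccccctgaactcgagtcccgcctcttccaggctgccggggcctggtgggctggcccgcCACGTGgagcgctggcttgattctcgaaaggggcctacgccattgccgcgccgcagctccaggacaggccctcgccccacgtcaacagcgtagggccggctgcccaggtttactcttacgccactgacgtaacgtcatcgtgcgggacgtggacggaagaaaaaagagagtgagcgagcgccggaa
ALDH7A1, chr5:126595170-126595469, minus strand: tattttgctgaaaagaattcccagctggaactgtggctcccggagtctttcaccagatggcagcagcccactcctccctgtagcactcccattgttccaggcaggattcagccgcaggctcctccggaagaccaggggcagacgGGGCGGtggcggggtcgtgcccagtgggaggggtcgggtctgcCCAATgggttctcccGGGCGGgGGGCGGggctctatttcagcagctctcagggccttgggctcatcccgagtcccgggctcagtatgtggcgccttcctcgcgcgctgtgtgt
ALDH1A1, chr9:72953004-72953303, minus strand: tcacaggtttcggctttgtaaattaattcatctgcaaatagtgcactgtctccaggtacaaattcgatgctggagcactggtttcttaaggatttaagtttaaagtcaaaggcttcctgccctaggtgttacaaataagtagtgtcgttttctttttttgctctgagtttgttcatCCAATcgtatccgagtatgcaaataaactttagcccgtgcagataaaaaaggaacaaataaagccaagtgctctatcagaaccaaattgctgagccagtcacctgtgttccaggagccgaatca
ALDH1A3, chr15:100879581-100879880, plus strand: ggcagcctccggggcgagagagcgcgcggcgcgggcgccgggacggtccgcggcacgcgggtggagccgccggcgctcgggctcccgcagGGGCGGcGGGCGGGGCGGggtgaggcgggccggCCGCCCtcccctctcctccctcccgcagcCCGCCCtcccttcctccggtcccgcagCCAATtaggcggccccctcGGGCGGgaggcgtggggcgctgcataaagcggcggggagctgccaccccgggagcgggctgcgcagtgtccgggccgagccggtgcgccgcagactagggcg

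The ALDH1A1 window was AT-rich, with a GC content of 40.3% and 7 CpG dinucleotides, against a median of 58.7% and 14 over all 35116 promoters in the table. ALDH18A1 had 67.0% and 31, ALDH7A1 had 64.3% and 17, and ALDH1A3 had 81.7% and 46. A CCAAT box lay at position -74 in ALDH1A1, -71 in ALDH1A3 and -63 in ALDH7A1, counting its first base from the start site. In all, 5 of the 10 member promoters held a CCAAT box, 6 held a GC box and 3 held an E-box, where 34.6%, 45.0% and 7.26% of all promoters did. The 2 GC boxes of ALDH1A3 at -153 and -148 overlap each other. TATAAA (the TATA box), TGACNNNGC (the core of the antioxidant response element), TNGCGTG (the dioxin response element), the interferon-stimulated response element and TGATGNAA (the amino acid response element) had no match in any of the 10 windows, and 11.5%, 13.3%, 5.51%, 3.57% and 3.62% of all promoters held them. A match is a match of letters and does not show a bound site.

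**Figure D1:**
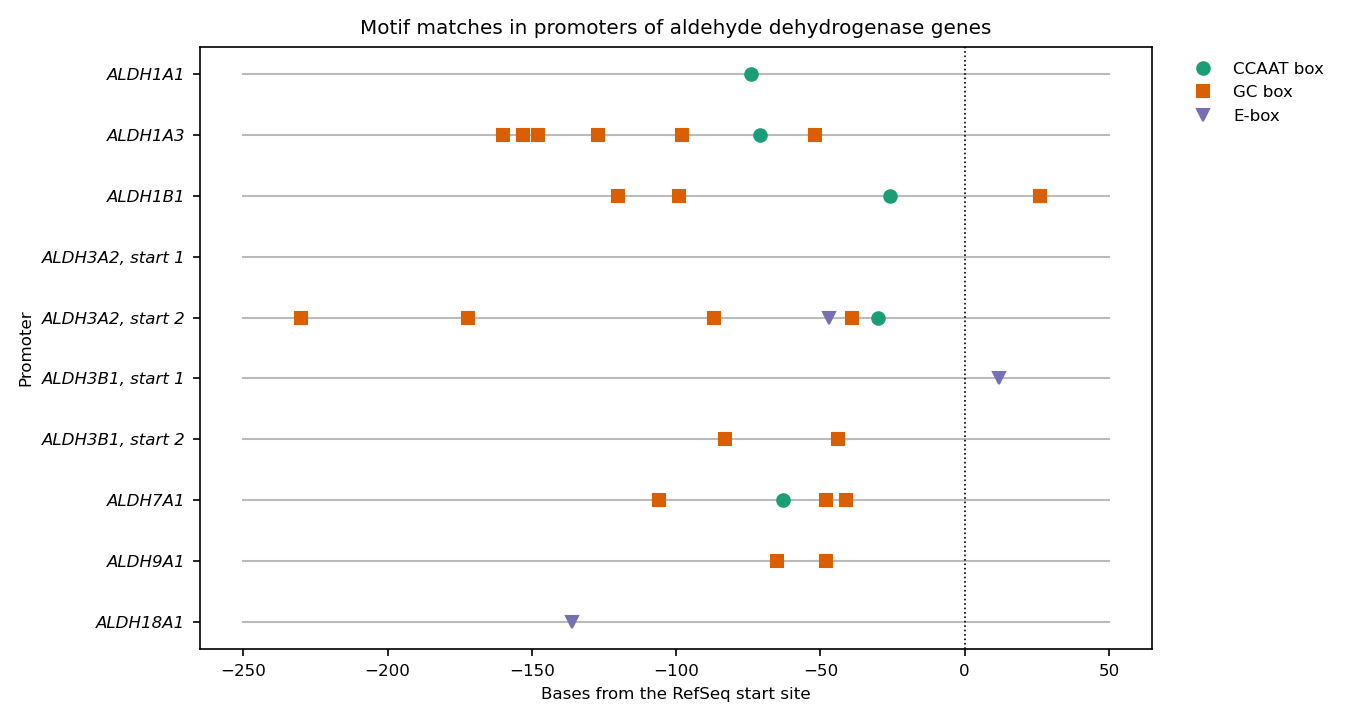
Positions of motif matches in the 10 RefSeq promoters of 8 aldehyde dehydrogenase genes; the x axis gives bases from the start site and each row is 1 promoter. ALDH18A1 holds an E-box alone at -136, ALDH1A1 a CCAAT box alone at -74, and ALDH1A3, ALDH1B1, ALDH7A1 and the second start of ALDH3A2 hold both CCAAT and GC boxes.

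Most members were lower in the KO libraries under TMM scaling, by modest amounts. By the quasi-likelihood test of edgeR, with p-values adjusted by Benjamini-Hochberg over all genes and a threshold of 0.05, 6 members fell, 1 rose and 3 did not pass, a called share of 7 in 10 where 53.5% of all genes tested were called. By direction, 27.2% of all genes were higher and 26.3% were lower. The median log2 fold change (KO minus WT) of the members was -0.16, and that of all genes tested was 0.00. KO and WT libraries did not overlap for 8 members, against 58.9% of all genes. In bulk RNA, fewer cells that express a gene and less of its RNA per cell cannot be told apart. ALDH3A2 fell by 8.2%, the least among the 6, and ALDH18A1 fell by 38.4%, the most, and ALDH18A1 was the one member past the threshold when the test asked for a change of more than 1.5-fold (adjusted p = 0.0287).

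Sizes given with "rose by" or "fell by" and no percent sign are log2 fold changes throughout. How the libraries are scaled bears on the small changes. When each library was scaled by its total of counts over exon length, as the per-length unit TPM does, the median log2 fold change of all genes moved to 0.15. On that per-length scaling, which was chosen after seeing the data, 36.6% of all genes were higher and 17.7% lower, and among the members 3 rose and 4 fell. ALDH18A1, ALDH7A1, ALDH2 and ALDH3B1 were lower past the threshold and ALDH1A3 was higher on both scalings. ALDH1A1 and ALDH3A2 lost their calls, with log2 fold changes of -0.05 (adjusted p = 0.189) and 0.02 (adjusted p = 0.665), and ALDH1B1 and ALDH9A1 became higher, by 0.23 (adjusted p = 0.00128) and 0.26 (adjusted p = 0.00112).

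**Figure D2:**
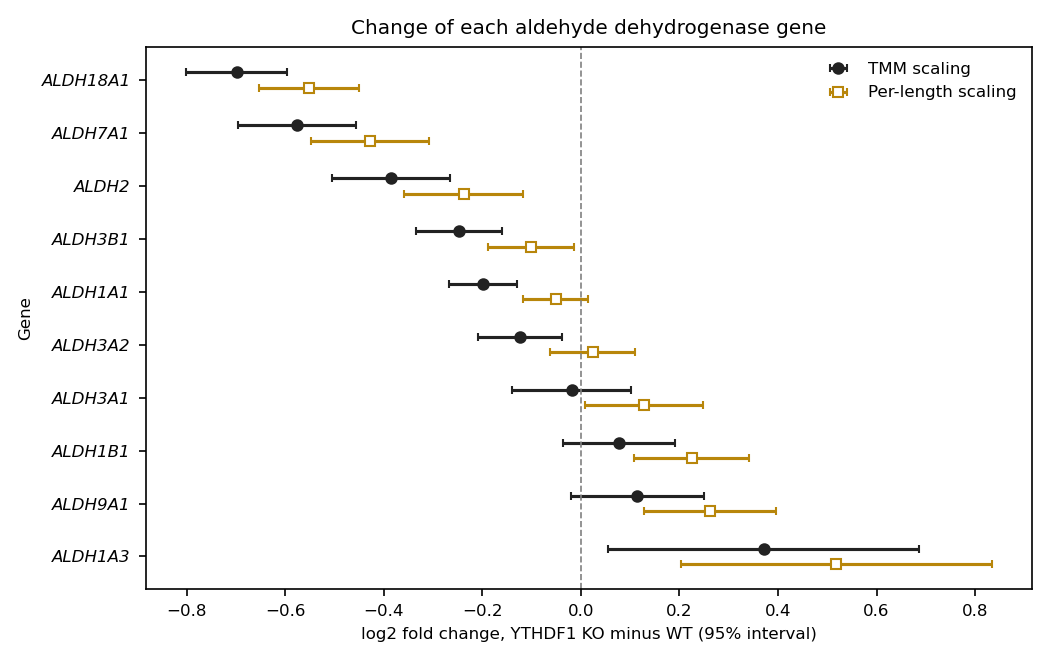
The log2 fold change (KO minus WT) of each member on the x axis, with points for the estimate and bars for the 95% interval of edgeR's fit, under TMM scaling (filled) and per-length scaling (open). All 10 points shift to the right under per-length scaling; ALDH18A1, ALDH7A1, ALDH2 and ALDH3B1 stay below 0 with their intervals, and ALDH3A2 and ALDH3A1 cross it.

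Among the 10 members, the largest fall was that of a proline synthesis enzyme. ALDH18A1, at chromosome 10 from 95605929 to 95656706 on the minus strand in GENCODE 29 (GRCh38), encodes the mitochondrial enzyme that turns glutamate into the common precursor of proline and ornithine. Its levels were 68.4, 68.3 and 65.8 CPM in the KO libraries, against 105, 115 and 108 CPM in the WT libraries. Every KO library lay well below every WT library, and the spread within each group was small. ALDH18A1 averaged 67.5 ± 1.44 CPM in KO and 110 ± 5.05 CPM in WT (SD, n = 3 each), a log2 fold change of -0.70 (SE 0.0505, edgeR adjusted p = 1.04e-13). Of the 18505 genes tested, 1956 (10.6%) fell at least as far. Its promoter, printed above, holds an E-box as its single capitalised match.

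Other genes of proline, ornithine and glutamate metabolism were also mostly lower. Of 8 listed genes 7 were tested, 4 fell, 1 rose and 2 did not pass, and the median log2 fold change was -0.46. By comparison, 26.3% of all genes tested were lower and 27.2% were higher. PYCR1, which reduces the product of ALDH18A1 to proline in mitochondria, averaged 14.0 ± 0.679 CPM in KO and 30.8 ± 1.82 CPM in WT and fell by 1.14 (SE 0.0818, edgeR adjusted p = 8.99e-14). PYCR3, the cytosolic form of that reductase, was at 6.54 ± 0.563 CPM in KO and 10.5 ± 1.56 CPM in WT and fell by 0.68. GLUD1, glutamate dehydrogenase, was at 90.4 ± 3.24 CPM in KO and 124 ± 4.09 CPM in WT and fell by 0.46. Exons of PYCR1 overlap another gene over 14.1% of their bases on the same strand and 15.6% on the opposite one, and those of GLUD1 over 13.2% on the opposite strand, so both counts carry some uncertainty. Under per-length scaling PYCR1, PYCR3 and GLUD1 stayed lower, past the threshold.

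Lysine breakdown and carnitine synthesis each have a member, and of these ALDH7A1 fell and ALDH9A1 did not pass under TMM scaling. ALDH7A1, which spans chromosome 5 from 126531200 to 126595418 (minus strand), oxidises the semialdehyde formed from lysine. It was at 50.7, 47.2 and 49.9 CPM in the KO libraries, against 72.4, 79.4 and 68.8 CPM in the WT libraries. The KO values were all lower and closer together. ALDH7A1 averaged 49.3 ± 1.82 CPM in KO and 73.5 ± 5.41 CPM in WT (SD, n = 3 each), a log2 fold change of -0.58 (SE 0.0587, edgeR adjusted p = 3.87e-10), and 14.5% of all genes fell at least as far. Of its 4 annotated pseudogenes, ALDH7A1P1 had 20 counts in the KO group and 10 in the WT group and the other 3 had 0, beside 5595 counts in KO and 7639 in WT for ALDH7A1. ALDH9A1, on chromosome 1 from 165662216 to 165698863, oxidises an aldehyde intermediate of carnitine synthesis and was at 38.8, 38.7 and 40.3 CPM in KO, against 33.9, 38.1 and 37.1 CPM in WT. Its KO libraries were all slightly higher, yet the log2 fold change of 0.11 did not pass the test (95% interval -0.02 to 0.25, edgeR adjusted p = 0.147).

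Of 10 listed genes of lysine breakdown, betaine and carnitine synthesis, 7 were tested, with 2 higher, 1 lower and 4 not past the threshold. Across all genes tested 53.5% were called. AASS, which starts lysine breakdown in mitochondria upstream of ALDH7A1, was at 2.98 ± 0.399 CPM in KO and 1.14 ± 0.237 CPM in WT and rose by 1.41. SLC22A5, the carnitine transporter, was at 84.7 ± 3.28 CPM in KO and 65.2 ± 0.91 CPM in WT and rose by 0.38. CHDH, choline dehydrogenase, fell by 0.28 (edgeR adjusted p = 0.041), its KO and WT libraries overlapped, and 18% of its exonic bases overlap CACNA1D on the opposite strand. Its call was lost under 11 of 16 alternatives, among them DESeq2, limma-voom, per-length scaling, and leaving out WT replicate 1, WT replicate 2, KO replicate 2 or KO replicate 3. Under per-length scaling 3 genes of this list were higher and CHDH was not called.

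Both mitochondrial enzymes of acetaldehyde oxidation were measured, and under TMM scaling ALDH2 fell and ALDH1B1 did not pass. ALDH2, on chromosome 12 from 111766887 to 111817529, the main enzyme for acetaldehyde from ethanol, was at 67.5, 56.8 and 62.7 CPM in KO, against 77.2, 80.7 and 85.8 CPM in WT. The groups did not overlap, although the KO libraries scattered more than for most members. It averaged 62.3 ± 5.35 CPM in KO and 81.2 ± 4.29 CPM in WT (SD, n = 3 each), a log2 fold change of -0.38 (SE 0.0589, edgeR adjusted p = 1.23e-06). In GENCODE 29, 7% of its exonic bases overlap another gene on the same strand. ALDH1B1, a related mitochondrial enzyme on chromosome 9 from 38392664 to 38398661, was at 64.1, 68.4 and 70.4 CPM in KO, against 67.1, 64.7 and 60.7 CPM in WT, and the groups overlapped. Its log2 fold change of 0.08 did not pass (95% interval -0.04 to 0.19, edgeR adjusted p = 0.256), an interval of 0.975-fold to 1.14-fold.

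ALDH1A1 dominated the family. It encodes the cytosolic retinal dehydrogenase widely used as a marker of stem-like tumour cells and spans chromosome 9 from 72900662 to 73080442 (minus strand). It was at 5223, 5459 and 5190 CPM in the KO libraries, against 6020, 6229 and 5963 CPM in the WT libraries. All KO libraries were lower than all WT libraries, and by counts the gene ranked 5 among all genes in each KO library and 5 or 6 in the WT libraries. ALDH1A1 averaged 5291 ± 147 CPM in KO and 6070 ± 140 CPM in WT (SD, n = 3 each), a log2 fold change of -0.20 (SE 0.0339, edgeR adjusted p = 7.44e-06), and 34.6% of all genes fell at least as far. ALDH1A1 fell by 12.8% under TMM scaling and was not called on per-length scaling, where the log2 fold change was -0.05 (95% interval -0.12 to 0.01).

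ALDH1A3, a second retinal dehydrogenase, was the one member called higher. On chromosome 15 from 100877714 to 100916626, it was scarce at 5.42, 5.27 and 5.53 CPM in the KO libraries, against 4.51, 4.16 and 3.87 CPM in the WT libraries. The KO libraries were all above the WT libraries, but these levels rest on 615 counts in the KO group and 438 in the WT group. The log2 fold change was 0.37 (SE 0.155, edgeR adjusted p = 0.0433). Leaving out WT replicate 2 or 3 or any 1 KO library ended the call, with adjusted p between 0.0683 and 0.135 in edgeR, and DESeq2 gave an adjusted p of 0.0539. In GENCODE 29, 27.5% of its exonic bases overlap an antisense gene now named ALDH1A3-AS1, which was at 7.68, 9.24 and 8.65 CPM in KO, against 12.2, 9.28 and 11.6 CPM in WT, and fell by 0.37 (edgeR adjusted p = 0.00895). Libraries were made with a stranded kit, per the labels, but no source used here gives the strand setting of the counting, so the division of reads between this pair is uncertain.

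Retinoid handling around ALDH1A1 and ALDH1A3 changed in both directions. Of 17 listed genes 16 were tested, with 7 higher, 5 lower and 4 not past the threshold, and a median log2 fold change of 0.17. For comparison, 27.2% of all genes tested were higher and 26.3% lower. CYP26B1, which breaks down retinoic acid and is induced by it, was at 45.9 ± 2.72 CPM in KO and 9.55 ± 1.26 CPM in WT and rose by 2.28 (SE 0.087, edgeR adjusted p = 4.14e-21). RDH10, which oxidises retinol to the retinal that ALDH1A enzymes use, was at 40.6 ± 2.22 CPM in KO and 22.7 ± 0.159 CPM in WT and rose by 0.84. DHRS3, which turns retinal back to retinol, rose by 0.56 to 201 ± 5.38 CPM in KO, against 136 ± 2.97 CPM in WT. RDH11, a retinal reductase, rose by 0.61 to 146 ± 1.89 CPM in KO, against 96.1 ± 1.96 CPM in WT. The receptor genes, chosen after their values were seen, divided: RARB and RARG rose by 0.34 and 0.55, while RARA, RXRA and RXRB fell by 0.23, fell by 0.17 and fell by 0.33. Under per-length scaling 8 genes of this list were higher and 1 was lower, and RARA, RXRA and RXRB were no longer called.

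ALDH3A1 and ALDH3A2 lie 60.4 kb apart on chromosome 17, with SLC47A2 as the coding gene between them, and under TMM scaling ALDH3A2 fell slightly and ALDH3A1 did not pass. ALDH3A1, from 19737984 to 19748943 on the minus strand, is a cytosolic enzyme for aromatic and medium-chain aldehydes. It was at 271, 220 and 224 CPM in KO, against 225, 265 and 234 CPM in WT. The groups overlapped, and KO replicate 1 and WT replicate 2 stood above the others. With a coefficient of variation of 11.9% in KO and 8.7% in WT, it was the most variable member within both groups. The log2 fold change of -0.02 did not pass (95% interval -0.14 to 0.10, edgeR adjusted p = 0.816), and its sign turned under library size only, per-length scaling and without KO replicate 2, KO replicate 3 or WT replicate 2.

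ALDH3A2, from 19648136 to 19677598 on the plus strand, encodes the fatty aldehyde dehydrogenase of the endoplasmic reticulum. It was at 213, 216 and 205 CPM in KO, against 227, 232 and 232 CPM in WT, with every KO library lower. The fall by 0.12 on the log2 scale (SE 0.0421, edgeR adjusted p = 0.0136) was lost without KO replicate 3 (edgeR adjusted p = 0.0902), and under per-length scaling the sign turned. ALDH3B1, on chromosome 11 from 68008578 to 68029282, a membrane-bound enzyme for aldehydes from lipid peroxidation, was at 275, 274 and 266 CPM in KO, against 309, 319 and 340 CPM in WT. All KO libraries were lower and lay close together. ALDH3B1 averaged 272 ± 4.77 CPM in KO and 323 ± 15.5 CPM in WT (SD, n = 3 each), a log2 fold change of -0.25 (SE 0.0427, edgeR adjusted p = 8.63e-06), and under per-length scaling it fell by 0.10 (edgeR adjusted p = 0.0474). Its close paralog ALDH3B2 had at most 4 counts in any library and was not tested.

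**Figure D3:**
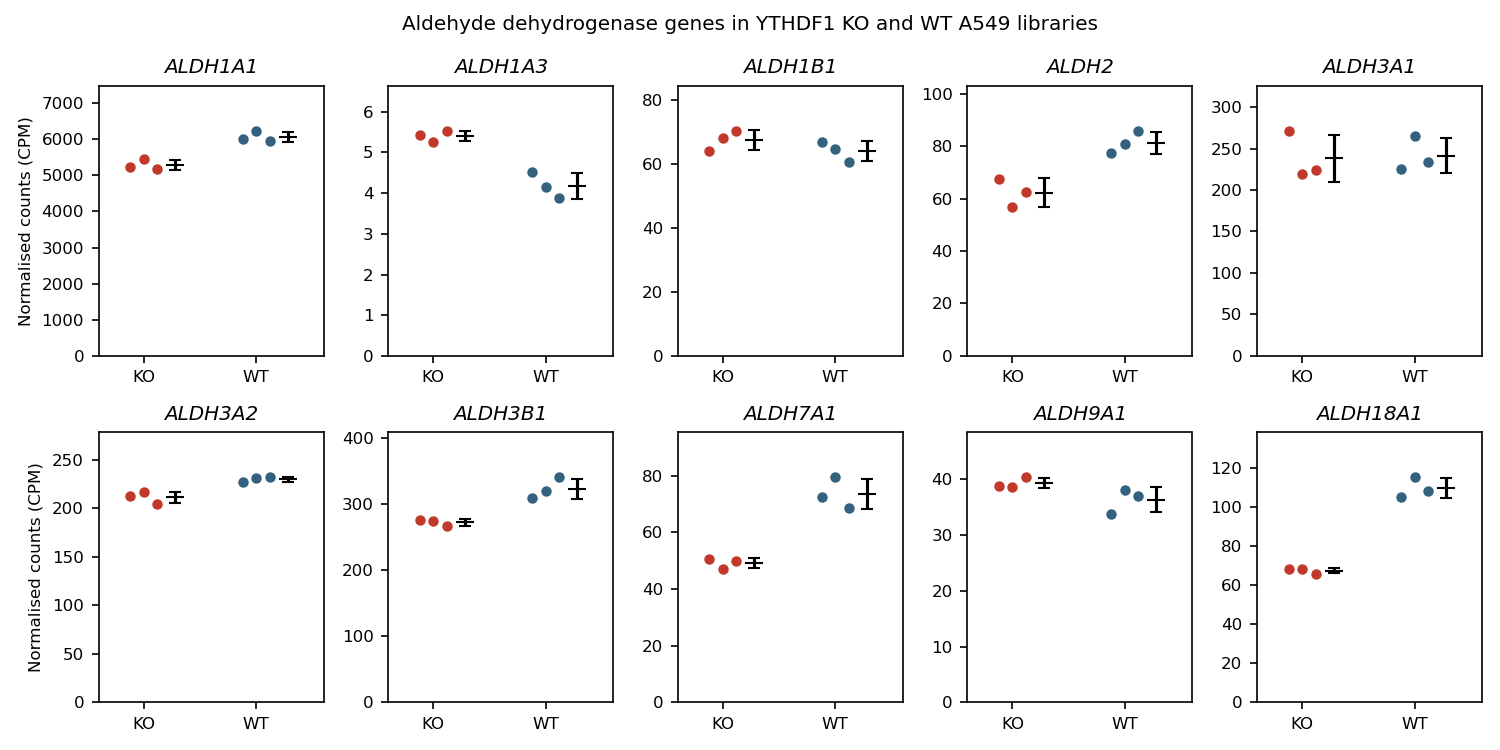
CPM of the 10 members in each library, 1 panel per gene with its own axis from 0, with KO to the left of WT; points are libraries and bars show the mean ± SD (n = 3). ALDH18A1 shows the widest gap relative to its level, at 65.8 to 68.4 CPM in KO and 105 to 115 CPM in WT, and ALDH3A1 and ALDH1B1 overlap between the groups.

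Sources of the fatty aldehydes that ALDH3A2 clears, and ether lipid synthesis, were lower for 5 of 10 listed genes and higher for 1, all 10 being tested. Among all genes tested, 26.3% were lower and 27.2% higher. GNPAT, the first enzyme of ether lipid synthesis in peroxisomes, was at 41.1 ± 1.99 CPM in KO and 71.7 ± 4.63 CPM in WT and fell by 0.80. FAR1, which makes the fatty alcohols for that pathway, was at 96.1 ± 3.31 CPM in KO and 136 ± 1.49 CPM in WT and fell by 0.50. HACL1, a peroxisomal lyase that releases fatty aldehydes, fell by 0.61, and 15.4% of its exonic bases overlap BTD on the opposite strand. SPHK1, which makes sphingosine 1-phosphate, rose by 1.26 to 57.3 ± 3.73 CPM in KO, against 23.9 ± 0.681 CPM in WT. SGPL1, chosen after its value was seen, is the lyase that cleaves sphingosine 1-phosphate to a fatty aldehyde. It had a log2 fold change of -0.06 and did not pass. Under per-length scaling 3 genes of this list were lower and 1 higher.

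NRF2 is a transcription factor of the antioxidant response, known to be constitutively active in A549 through a mutation in its inhibitor KEAP1. All 13 listed genes of the pathway were called, 9 higher and 4 lower, where 53.5% of all genes tested were called. HMOX1, heme oxygenase, was at 429 ± 25.5 CPM in KO and 161 ± 13.8 CPM in WT and rose by 1.42. SLC7A11, the cystine transporter, was at 261 ± 9.45 CPM in KO and 112 ± 8.7 CPM in WT and rose by 1.23. AKR1B10, an aldo-keto reductase that reduces aldehydes to alcohols, was at 482 ± 36.2 CPM in KO and 1005 ± 49.7 CPM in WT and fell by 1.06.

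**Figure D4:**
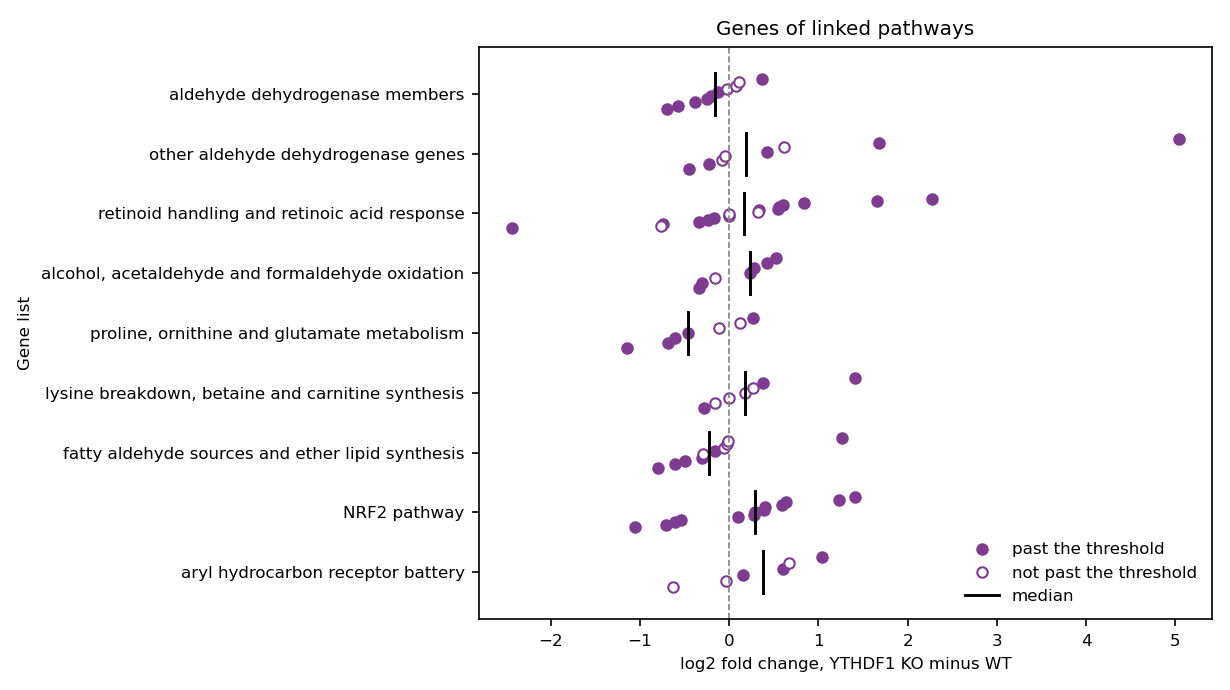
Log2 fold changes (KO minus WT) on the x axis for the tested genes of each list, with filled points past the threshold, open points not past it and a bar at the list's median. The members lie between -0.70 and 0.37, the proline list has a median of -0.46, and all 13 NRF2 genes are filled on both sides of 0.

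Among the 9 aldehyde dehydrogenase genes outside the set, 8 were tested, with 3 higher, 2 lower and 3 not past the threshold. Over all genes tested, 27.2% were higher and 26.3% lower. ALDH1A2 and ALDH8A1, the latter chosen after its values were seen, passed the filter on low counts only through their KO libraries. That favoured a call of higher. ALDH8A1 had 32, 23 and 27 counts in KO, against 0, 17 and 5 in WT. With a filter of 1 CPM in 3 libraries 1 gene of this list was higher, and under DESeq2 2 were. ALDH1A2, the third retinal dehydrogenase, had 36, 20 and 25 counts in the KO libraries, against 2, 0 and 0 counts in the WT libraries, so that the KO to WT ratio was 37.3 (95% exact interval for counting error, 10.0 to 314). ALDH6A1, of valine breakdown, was at 8.6 ± 0.322 CPM in KO and 11.8 ± 0.364 CPM in WT and fell by 0.45. ALDH4A1, of proline breakdown, was at 17.9 ± 2.33 CPM in KO and 13.4 ± 1.28 CPM in WT and rose by 0.42, although 41.1% of its exonic bases overlap another gene on the same strand. ALDH16A1 fell by 0.22 and lost its call without KO replicate 2 and under per-length scaling.

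Levels can be compared between genes only per length, here as TPM over the union of each gene's exons. ALDH1A1 stood at 7602 ± 210 TPM in KO and 7875 ± 129 TPM in WT (SD, n = 3 each), between 90.0% and 90.9% of the summed level of the 10 members in KO libraries and between 90.5% and 90.9% in WT libraries. ALDH3A1 followed at 249 ± 27.6 TPM in KO and 228 ± 18.1 TPM in WT, then ALDH3B1 at 168 ± 1.51 TPM in KO and 180 ± 8.81 TPM in WT, and ALDH3A2 at 134 ± 3 TPM in KO and 132 ± 1.16 TPM in WT. These 4 did not overlap one another in either group. The fifth and sixth places changed hands: ALDH18A1 was at 73.6, 74.2 and 72.3 TPM in KO, below ALDH1B1 at 82.4, 88.6 and 92.4 TPM in the same libraries, whereas in WT ALDH18A1 was at 104, 112 and 107 TPM, above ALDH1B1 at 79.1, 75.1 and 71.4 TPM.

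Lower in the order, ALDH9A1 was at 48.6 ± 1.58 TPM in KO and 40.6 ± 2.23 TPM in WT, ALDH2 at 26.2 ± 2.16 TPM in KO and 30.9 ± 1.63 TPM in WT, ALDH7A1 at 10.7 to 11.5 TPM in KO and 14.2 to 16.2 TPM in WT, and ALDH1A3 at 3.83 ± 0.117 TPM in KO and 2.68 ± 0.212 TPM in WT. None of these neighbours overlapped within a group. The place of ALDH7A1 depends on its length, since its exons join to 17970 bases while its longest transcript has 4964, and with the latter it stood at 30.6 TPM in KO and 41.8 TPM in WT, above ALDH2. With the longest transcripts ALDH3A2 also passed ALDH3B1, and ALDH18A1 remained below ALDH1B1 in KO (61.9 and 67.9 TPM) and above it in WT (92.2 and 59.1 TPM). The 10 members summed to 8404 ± 191 TPM in KO and 8687 ± 144 TPM in WT, ranges of 8262 to 8622 and 8571 to 8848 TPM that overlap. With the longest transcript as length the ranges were 8477 to 8811 TPM in KO and 8915 to 9209 TPM in WT, which do not overlap. Without ALDH1A1 the other 9 summed to 802 ± 24 TPM in KO and 812 ± 23.9 TPM in WT.

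**Figure D5:**
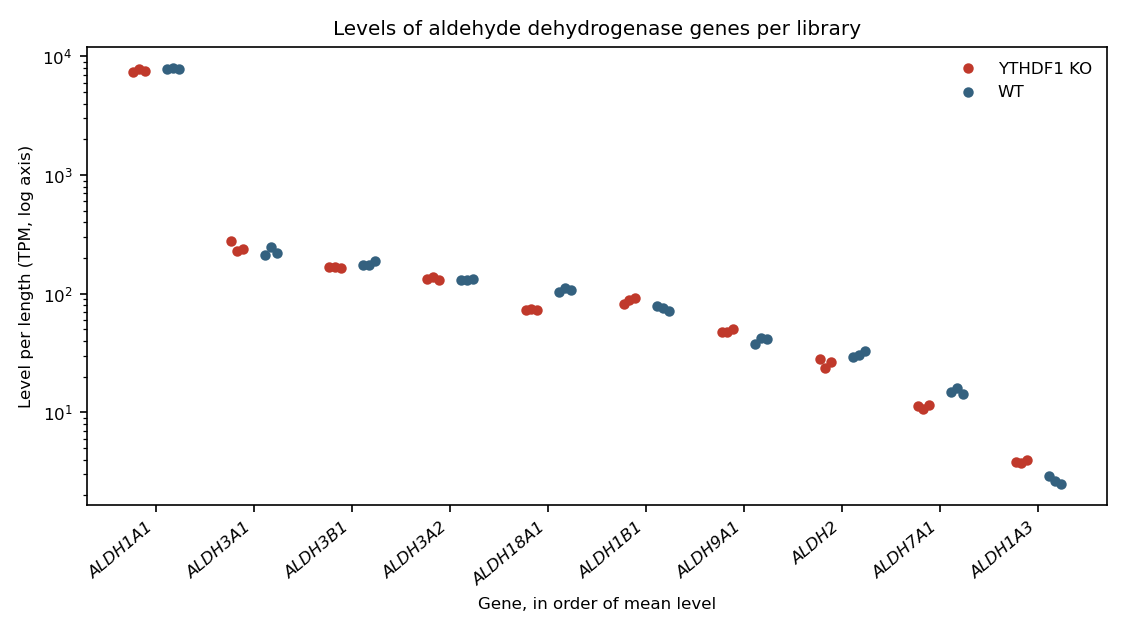
Level per length (TPM, log axis) of each member in each library, with KO points left of WT points and genes in order of mean level. ALDH1A1 lies near 7602 TPM in KO and 7875 TPM in WT, the highest value of any other member is 281 TPM, and ALDH18A1 and ALDH1B1 change places between the groups.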

How the data were processed

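RNA-seq was available for 3 YTHDF1 KO and 3 WT libraries of A549 cells, grouped by their titles. The authors deposited raw counts, whole numbers per Ensembl gene and library. Per the submitters' processing notes, the tools were STAR 2.7.0d, Trim Galore 0.6.6, edgeR 3.32.1 and featureCounts 2.0.1, and the build was GRCh38. No source used here gives the annotation release, strand setting or handling of multiply mapped reads. Symbols came from a table of gene identifiers and from GENCODE 29, which also gave coordinates and exons.

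The main test was edgeR 4.0.16 (R 4.3.3): filterByExpr, TMM factors, quasi-likelihood F test with genotype as the only term, two-sided, Benjamini-Hochberg adjustment over 18505 genes, threshold 0.05. Each standard error is the fold change divided by the square root of F. Alternatives were DESeq2 1.42.0, limma-voom (limma 3.58.1), other scalings, filters and thresholds, a replicate block and leaving out each library. TPM used union exon lengths. The tests were also run on simulated counts with 200 changed genes. In the real counts 9893 genes were called, so that run does not cover changes this broad. Count-ratio intervals and floors cover counting error only. All 6 libraries were kept as separate samples: between libraries of a group, chi-square over its degrees of freedom was 4.2 to 6.09, above sampling noise.

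The members and lists were chosen with earlier results of these data known. Named were all members, YTHDF1, genes in the annotation that overlap or copy a member, up to 4 genes with the smallest adjusted p per list, and the 3 genes most like the most abundant member. Any further gene is marked as picked with its values known, and a few genes under the rule are not reported here.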

Additional observations from a re-analysis of the deposited data

How the results depend on the processing

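Of the 10 members, ALDH18A1 kept its direction and call under all 16 alternatives. When the test asked for a change of more than 1.5-fold, 1 member was lower and 0 higher, against 6 and 1. Over all 18505 genes tested, 1573 were higher and 1012 lower, against 5028 and 4865, a called share of 14% against 53.5%. That setting also left 9 higher and 5 lower of the genes on the pathway lists, against 30 and 23. Under DESeq2, with no filter on low counts, at a threshold of 0.01 and with the replicate block, 0 members were higher, since ALDH1A3 lost its call. Leaving out 1 library gave between 0 and 1 members higher and between 5 and 6 lower. Per-length scaling gave 3 members higher and 4 lower, and 33 pathway genes higher and 14 lower, against 30 and 23. On that scaling 36.6% of all genes tested were higher and 17.7% lower. The log2 fold change of ALDH3A1 turned to 0.0070 with library size only, to 0.13 with per-length scaling, and ranged between -0.12 and 0.049 when 1 library was left out, while that of ALDH3A2 turned to 0.024 with per-length scaling. With the longest transcript as length, the members summed to 8608 TPM in KO and 9034 TPM in WT, and the groups no longer overlapped; with exon unions, leaving out 1 library gave between 8295 and 8475 TPM in KO and between 8607 and 8745 TPM in WT. The cause of these shifts was not tested. Same-numbered KO and WT libraries had deviations with correlations of -0.03, -0.03 and 0.02 over 14470 genes. No shared replicate effect was seen, but these values cannot tell whether same-numbered libraries were handled together. With the replicate block 4937 genes were higher and 4766 lower, and 6 members lower and 0 higher. Among the members, ALDH1A3 rests on the fewest counts, 615 in KO and 438 in WT.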

Other observations

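Genes of alcohol, acetaldehyde and formaldehyde oxidation were tested for 7 of 14 listed members, with 4 higher, 2 lower and 1 not past the threshold. Across all genes tested 27.2% were higher and 26.3% lower. The alcohol dehydrogenase genes ADH1A, ADH1B, ADH1C, ADH4, ADH6 and ADH7, and CYP2E1, did not pass the filter on low counts. ADH5, which oxidises formaldehyde bound to glutathione, was at 132 ± 4.21 CPM in KO and 109 ± 1.55 CPM in WT and rose by 0.27. ESD, which acts on the product of ADH5, was at 45.1 ± 1.06 CPM in KO and 57.1 ± 1.97 CPM in WT and fell by 0.34. ACSS1 and ACSS2, which turn acetate into acetyl-CoA, rose by 0.52 and 0.43.

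Of the 7 genes listed for the aryl hydrocarbon receptor, 6 were tested, 3 rose and 3 did not pass, where 53.5% of all genes tested were called. CYP1B1, an oxidase induced by the receptor, was at 321 ± 13.6 CPM in KO and 157 ± 8.12 CPM in WT and rose by 1.04, with 12.9% of its exonic bases overlapping genes on the opposite strand. TIPARP, a feedback inhibitor, was at 100 ± 2.3 CPM in KO and 65.7 ± 1.07 CPM in WT and rose by 0.61. ARNT, the receptor's partner, rose by 0.15 and lost its call without WT replicate 3 or KO replicate 3.

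Over the 6 libraries, the genes whose log2 CPM correlated most with that of ALDH1A1, among 9770 genes that averaged 10 CPM or more, were IFT88 (Pearson r = 0.998), CTCF (r = 0.997) and FAAP20 (r = 0.996). These r values describe 6 libraries that fall into 2 groups, and 1043 genes had an r of at least 0.95.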
